A study of Rattus norvegicus with 18 samples.

Results

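The 10 genes described here carry ethanol through acetaldehyde to acetate and acetyl-CoA: Adh1, Adh5, Adh7, Cat, Cyp2e1, Aldh2, Aldh1b1, Aldh3a2, Acss1 and Acss2. They were taken by name from the 38445 genes of the count files. All 10 were found, 9 by their symbol and Adh1 by a synonym (its current rat symbol is Adh1c). Their RNA was measured in the ventral tegmental area (VTA), a midbrain region rich in dopamine neurons that serve reward, in 18 adult male wild-type Sprague-Dawley rats. Control rats (1 to 6) drank the ethanol-free Lieber-DeCarli liquid diet. Chronic ethanol rats (7 to 12) drank the ethanol form of that diet (9% v/v), over 15 or 16 days, and were killed with no withdrawal (0 h). Withdrawal rats (13 to 18) had the same ethanol diet, which was then stopped for 24 h. Each library came from 1 rat, and the dissected tissue held glia, vessels and neurons together, so fewer cells of a type and less RNA per cell cannot be told apart.

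In the liver, alcohol dehydrogenases in the cytosol turn ethanol into acetaldehyde, and aldehyde dehydrogenases, above all the mitochondrial ALDH2, turn acetaldehyde into acetate. In the brain, where class I alcohol dehydrogenase is scarce, the first step is attributed mostly to catalase, which uses hydrogen peroxide in the peroxisome, and to the cytochrome P450 CYP2E1 in the endoplasmic reticulum. Acetate made in the liver also reaches the brain through the blood, and the acetyl-CoA synthetases ACSS2 (cytosol and nucleus) and ACSS1 (mitochondria) turn it into acetyl-CoA, the donor for histone acetylation, lipid synthesis and the citric acid cycle. Acss2 is a known target of the sterol-regulated transcription factors SREBP.

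The bases upstream of Acss2 and Aldh1b1 are shown because these members had the lowest p in withdrawal against control. Each run holds the 250 bases before the annotated start of the gene, 5′ to 3′ on the strand of the gene, from RefSeq (GRCr8). Capitals mark matches on either strand to CCAAT (the CCAAT box), to GGGCGG (the GC box) and to TGACNNNGC (the core of the antioxidant response element).
Acss2 (chr3:164464453-164464702, plus strand): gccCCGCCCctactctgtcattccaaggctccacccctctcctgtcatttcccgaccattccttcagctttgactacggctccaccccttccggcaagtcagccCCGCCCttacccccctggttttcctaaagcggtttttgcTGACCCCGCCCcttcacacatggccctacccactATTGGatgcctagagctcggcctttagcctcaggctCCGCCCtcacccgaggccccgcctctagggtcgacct
Aldh1b1 (chr5:64858750-64858999, plus strand): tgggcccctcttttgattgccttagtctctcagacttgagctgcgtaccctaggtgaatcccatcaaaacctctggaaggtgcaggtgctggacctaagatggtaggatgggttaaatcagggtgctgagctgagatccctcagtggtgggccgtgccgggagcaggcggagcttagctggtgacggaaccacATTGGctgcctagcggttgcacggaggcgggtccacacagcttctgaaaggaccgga

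The Acss2 window held 4 GC boxes and 1 CCAAT box. It also held 1 antioxidant response core, at -107 to -99 from the start, which overlaps the GC box at -102 to -97. Neither the core TCACNCCAC of the sterol response element nor the E-box CACGTG was found in it. The Aldh1b1 window held 1 CCAAT box, at -57 to -53. A promoter was found for 8 of the 10 members, and 7 of the 8 windows held a CCAAT box. Of 33469 rat promoters read over the same length, 34.0% held CCAAT, 30.5% GGGCGG, 10.1% TGACNNNGC, 5.59% CACGTG and 0.974% TCACNCCAC. A match describes letters in the window and is not a binding site.

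Libraries held 29.6 to 45.1 M counts, with a median of 38.4 M. Levels are given in CPM, the count scaled by library size. A gene at 0 could have up to 3 counts at 95% confidence, or 0.0665 to 0.102 CPM in these libraries, which covers counting error only. Markers of dopamine neurons (9 genes) were detected in every library, with sums of 256 to 3270 CPM. Some libraries stood apart. Withdrawal rat 13 held 16265 CPM of the 5 pineal markers, against at most 10.1 CPM in any other rat. Control rat 5 and ethanol rat 8 held 31.4 and 30.7 CPM of Hoxb3, a hindbrain patterning gene, while the other 16 rats had up to 2.01 CPM. Of those 16, withdrawal rats 14 to 18 held 0.893 to 2.01 CPM, above every control and ethanol rat (0.0335 to 0.756 CPM). Withdrawal rat 13 had 0. Withdrawal rat 17 had the lowest dopamine neuron sum. Results are therefore also given without rats 5, 8, 13 and 17 ("the 14 rats"). The higher Hoxb3 of the withdrawal rats stays in the 14 rats, and its part in the results was not tested. The first index of the libraries was the same in rats 1 to 8, another in rats 9 to 16 and yet another in rats 17 and 18. No index holds both control and withdrawal rats.

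Levels of different genes are compared as CPM per kilobase of exon, averaged over the 18 rats. The members fell into a group of 5 abundant transcripts, a pair at lower level, and 3 that were scarce or nearly absent. Catalase stood first at 49.9 ± 5.37 (SD, n = 18), followed by Aldh2 at 43.7 ± 8.37, Acss2 at 38.0 ± 8.66 and Adh5 at 34.6 ± 4.94. The order of these neighbours varied among rats: Cat was above Aldh2 in 15 of 18 rats, Aldh2 above Acss2 in 13 and Acss2 above Adh5 in 12. The mean differences within rats were 6.22 ± 7.83, 5.68 ± 9.35 and 3.37 ± 10.8 (SD, n = 18), and were not tested. Adh5 was above Aldh3a2 (26.5 ± 1.46) in all 18 rats, and their ranges did not overlap. Acss1, the mitochondrial synthetase, followed at 9.85 ± 2.47, and was above Aldh1b1 (6.13 ± 0.924) in all 18 rats. Adh1 lay far lower at 0.277 ± 0.122, and Adh7 and Cyp2e1 were near 0 in every group. Of the members that can start ethanol oxidation, catalase thus had the highest mean level. Adh7 was above Cyp2e1 in 8 of 18 rats, and which of these was scarcer was not resolved. The plot of levels by rat shows these steps.

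**Figure D1:**
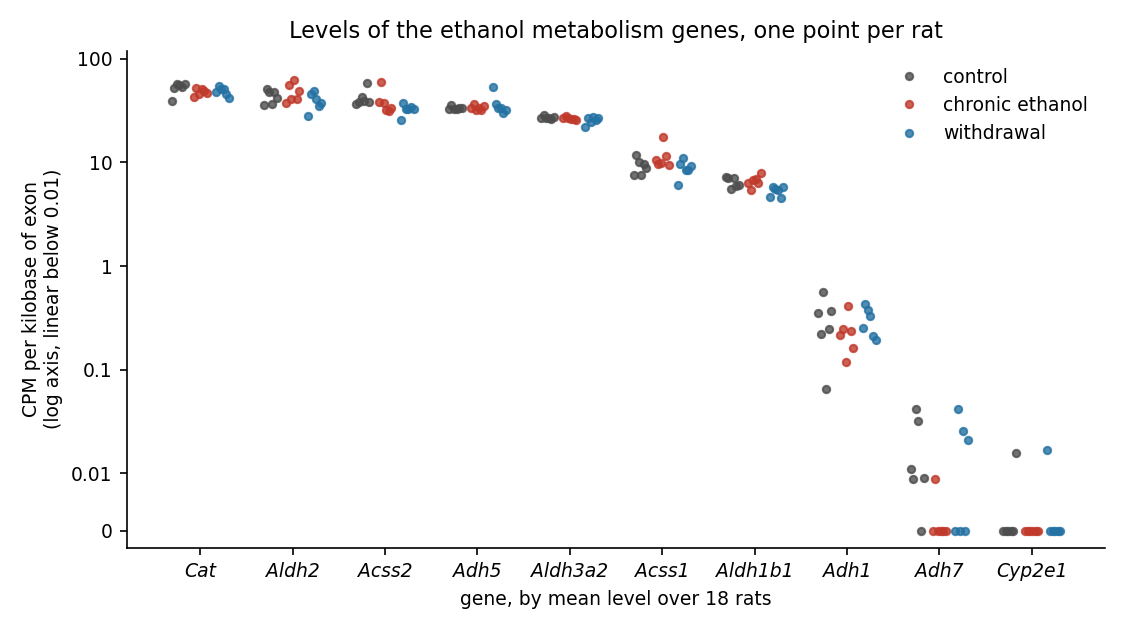
Level of each of the 10 genes in CPM per kilobase of exon (log axis, linear below 0.01), 1 point per rat, coloured by group, with genes ordered by their mean over 18 rats. Cat, Aldh2, Acss2, Adh5 and Aldh3a2 lie between 22.0 and 63.1, while Adh7 and Cyp2e1 lie at or near 0.

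Of the 10 members, 8 passed the filter on low counts and were tested among 17637 genes. In none of the 3 comparisons did any member pass the edgeR test at an adjusted p under 0.05, and 0% of the 17637 tested genes passed it in any of them. With DESeq2, 46 genes passed in chronic ethanol against control, 47 in withdrawal against control and 301 between the ethanol-fed groups, again with 0 members. In chronic ethanol against control, 0 of the 8 had an unadjusted p under 0.05, against 5.84% of all tested genes. In withdrawal against control, 2 of the 8 were lower at that level (Aldh1b1 and Acss2), against 3.58% of all genes (9.82% in either direction). In withdrawal against chronic ethanol, 2 of the 8 were lower (Aldh1b1 and Acss1), against 5.95% of all genes (15.3% in either direction). None was higher at that level in any comparison, where 3.1%, 6.24% and 9.38% of all genes were. The groups of each member overlapped in every comparison, while 0.93%, 0.607% and 1.36% of all genes had groups free of overlap. These counts moved with single rats. Leaving out 1 rat, the first became 1 without rat 1, 2 or 8. The count of 2 in withdrawal against control became 1 without rat 5 or rat 13 and 3 without rat 1. That in withdrawal against chronic ethanol became 1 without rat 10, 13, 16 or 17 and 3 without rat 7 or 15. The median log2 change of the 8 was -0.01, -0.10 and -0.15 in the same order, beside 0.00, 0.01 and 0.02 over all genes. These comparisons share groups of rats and are not independent of each other.

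Of the enzymes that make acetaldehyde, the alcohol dehydrogenase Adh1 (gene 24172, chr2:243550655-243562243, plus strand, Rnor_6.0) was barely detected. It took 4 to 35 counts in a library. In control rats it ranged from 0.116 to 1.01 CPM (median 0.542), in ethanol rats from 0.216 to 0.737 CPM (median 0.408) and in withdrawal rats from 0.346 to 0.770 CPM (median 0.524). The groups overlapped almost wholly. Its log2 change was -0.40 ± 0.38 (SE) in chronic ethanol against control (edgeR adjusted p = 0.999) and -0.01 ± 0.37 in withdrawal against control (adjusted p = 0.994). The highest value, in control rat 3, came from the library with the highest sum of the 10 meningeal fibroblast markers, at 720 CPM against 62.6 to 219 CPM in the other 17. Of those 10 markers, Col1a2 and Ogn were at 0 in every library. The part of meningeal tissue in the Adh1 values was not tested. Related genes lie beside Adh1, and how pairs were split among them is uncertain.

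Adh5 (gene 100145871, chr2:243728500-243740907, plus strand) encodes the class III enzyme, which mainly clears formaldehyde as its glutathione adduct and has little activity on ethanol. It was the steadiest member in the control group, at 45.6 to 49.6 CPM (median 46.1). Ethanol rats had 44.2 to 50.8 CPM (median 46.5) and withdrawal rats 41.6 to 73.9 CPM (median 46.5). All 3 groups overlapped, and 1 rat stood out, withdrawal rat 13 at 73.9 CPM. The log2 change was 0.00 ± 0.10 in chronic ethanol against control (adjusted p = 0.999). In withdrawal against control it was 0.12 ± 0.10 (adjusted p = 0.674), and without rat 13 it was -0.02.

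Adh7 (gene 171178, chr2:243500540-243516865, plus strand), the class IV enzyme of the stomach lining, took 20 counts over all 18 libraries. These were 10 in control, 1 in chronic ethanol and 9 in withdrawal rats, with at most 4 in a library. Cyp2e1 (gene 25086, chr1:213511892-213522195, plus strand), the ethanol-inducible P450, took 2 counts in all, 1 in control rat 6 and 1 in withdrawal rat 13, and 0 in all 6 ethanol rats. Neither passed the filter, and no fold change is given. Both were at or near the floor of 3 counts, so a difference in Cyp2e1 between groups was not detectable at this depth. With no filter on low counts, 1 member was at an unadjusted p under 0.05 (edgeR) in chronic ethanol against control. None of the 8 tested members was at that p there. In withdrawal against chronic ethanol there were 3, and of the 8 only Aldh1b1 and Acss1 were at that p. The added member in each was thus Adh7 or Cyp2e1. As Cyp2e1 took 2 counts in all, no difference in Cyp2e1 can be read from this. The sum of the 6 hepatocyte markers, from cells in which Cyp2e1 is abundant, was 4.13 to 23.5 CPM, highest in rat 13.

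Catalase (gene 24248, chr3:93379872-93412058, minus strand) was at 99.6 to 146 CPM in control rats (median 139), 109 to 134 CPM in ethanol rats (median 121) and 106 to 138 CPM in withdrawal rats (median 126). In the control group 5 rats lay between 134 and 146 CPM, and control rat 1 lay below every ethanol and withdrawal rat. The log2 change was -0.14 ± 0.09 in chronic ethanol against control (unadjusted p = 0.134, edgeR adjusted p = 0.951) and -0.11 ± 0.09 in withdrawal against control (adjusted p = 0.644). Without control rat 1 these changes were -0.21 and -0.19. With 1 rat left out, the lowest unadjusted p (edgeR) of the changes was 0.00633 and 0.0133. Over all settings run the lowest adjusted p was 0.482 and 0.508. Between withdrawal and chronic ethanol the log2 change was 0.03 ± 0.09 (adjusted p = 0.904). Red blood cell transcripts were also highest in control rats. The sum of 6 red blood cell markers (5 tested, 0 at 0 in every library) was 186 to 527 CPM in control rats, 53.1 to 237 CPM in ethanol rats and 93.7 to 176 CPM in withdrawal rats. Pearson's r between Cat and this sum was 0.54 over the 14 rats and 0.55 over 18. Other sums were about as close over the 14 rats. There r was 0.63 with the oligodendrocyte, 0.55 with the meningeal fibroblast and 0.52 with the microglia sum, and over 18 rats 0.31, 0.51 and 0.44. The part of these in the Cat differences was not tested.

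Of the enzymes that oxidise acetaldehyde, Aldh2 (gene 29539, chr12:40466418-40498813, plus strand) is the main mitochondrial one. Its level was 73.1 to 104 CPM in control rats (median 91.5), 76.8 to 129 CPM in ethanol rats (median 92.1) and 57.9 to 101 CPM in withdrawal rats (median 80.4). The groups overlapped widely, with ethanol rat 10 highest and withdrawal rat 13 lowest. The log2 change was 0.14 ± 0.15 in chronic ethanol against control (adjusted p = 0.999) and -0.13 ± 0.15 in withdrawal against control (adjusted p = 0.745). In withdrawal against chronic ethanol it was -0.27 ± 0.15 (unadjusted p = 0.0777, adjusted p = 0.373), with 3 of 6 withdrawal rats below every ethanol rat. In the 14 rats that last change was -0.09. Without rat 10 the changes in chronic ethanol against control and withdrawal against chronic ethanol were 0.04 and -0.18, and without rat 13 that in withdrawal against control was -0.05.

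Aldh2 varied among rats with the level of astrocyte and microglia transcripts. The summed level of 10 astrocyte markers, of which 10 passed the filter and 0 were at 0, was 3381 to 6074 CPM in control rats, 2779 to 6558 CPM in ethanol rats and 2207 to 4818 CPM in withdrawal rats. Ethanol rat 10 had the highest sum and rat 13 the lowest, as for Aldh2. Pearson's r between log2 Aldh2 and the log2 sum was 0.82 over the 14 rats and 0.87 over 18, given as a description over libraries that share both measures. With the sum of 6 microglia markers r was 0.74 over the 14 rats and 0.77 over 18, and with the dopamine neuron sum 0.59 and 0.28. With the oligodendrocyte sum, also glial, r was lower, at 0.20 over the 14 rats and 0.51 over 18. The genes most like Aldh2 over the 14 rats, among 15029 compared, were Id3 (r = 0.94), Apoe (0.93) and Lgi4 (0.92), and over all 18 rats their r was 0.52, 0.74 and 0.94. The part of glial content in the group differences was not tested.

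Aldh1b1 (gene 298079, chr5:61382351-61387359, plus strand), a second mitochondrial enzyme that acts on acetaldehyde, had the lowest p of the members. Its level was 12.2 to 16.1 CPM in control rats (median 14.3), 11.9 to 17.5 CPM in ethanol rats (median 14.5) and 10.0 to 12.6 CPM in withdrawal rats (median 12.0). Control and ethanol rats had similar ranges, and the withdrawal rats lay at its lower end, with 4 of 6 below every control rat and 3 of 6 below every ethanol rat. The groups still overlapped, through control rat 3 and ethanol rat 8.

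The mean level of Aldh1b1 was 14.2 ± 1.60 CPM in control rats, 14.6 ± 1.84 CPM in ethanol rats and 11.6 ± 1.19 CPM in withdrawal rats (SD, n = 6). The log2 change was 0.04 ± 0.10 in chronic ethanol against control (adjusted p = 0.999). In withdrawal it was -0.30 ± 0.10 against control (unadjusted p = 0.00757, edgeR adjusted p = 0.403) and -0.34 ± 0.10 against chronic ethanol (unadjusted p = 0.00307, adjusted p = 0.161). Neither passed the adjusted test. Over 26 other settings the adjusted p ranged from 0.238 to 0.793 against control and from 0.0536 (with DESeq2) to 0.321 against chronic ethanol.

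The lower level of Aldh1b1 in withdrawal kept its direction in the 14 rats, at -0.24 against control (unadjusted p = 0.0178, edgeR adjusted p = 0.574) and -0.30 against chronic ethanol (unadjusted p = 0.00413, adjusted p = 0.189). Within the index shared by ethanol rats 9 to 12 and withdrawal rats 13 to 16, the difference was -0.40. There 4 of 4 withdrawal rats lay below every ethanol rat, as did 3.07% of all tested genes. When the index was added as a term, the change against control was -0.54 (unadjusted p = 0.00810, adjusted p = 0.793), and chronic ethanol against control turned to -0.14. The genes most like Aldh1b1 over the 14 rats, among 15029 compared, were Cibar1 (r = 0.87), Taf9b (0.86) and Klhl7 (0.84). Over all 18 rats their r was 0.48, 0.59 and 0.83. Picking the highest of so many genes can give a high r by itself, for this and the other members.

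The lowest Aldh1b1 values were those of withdrawal rats 17 and 13, libraries that stood apart. The dopamine neuron sum (9 markers, 0 at 0) was 1059 to 3169 CPM in control rats, 409 to 3270 CPM in ethanol rats and 256 to 2657 CPM in withdrawal rats. Pearson's r between Aldh1b1 and this sum was 0.22 over the 14 rats and 0.63 over 18. With the oligodendrocyte sum it was -0.61 over the 14 rats and 0.05 over 18. The part of either in the lower Aldh1b1 level was not tested.

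Aldh3a2 (gene 65183, chr10:47525486-47546535, minus strand), the fatty aldehyde dehydrogenase, varied least of the members, with a coefficient of variation of 5.52% over 18 rats. It was at 94.0 to 104 CPM in control rats (median 96.4), 93.0 to 102 CPM in ethanol rats (median 96.1) and 79.2 to 98.9 CPM in withdrawal rats (median 94.4). Withdrawal rat 13 was the lowest rat, and its sum of the 7 oligodendrocyte markers, 16875 CPM, was also the lowest (30171 to 44143 CPM in the other rats, with 0 of the 7 markers at 0). Its astrocyte, microglia and endothelial sums were the lowest too. Over the 14 rats Aldh3a2 had r = 0.42 with the oligodendrocyte, 0.43 with the red blood cell, -0.53 with the choroid plexus and -0.55 with the pineal sum. Over 18 rats these were 0.78, 0.38, -0.85 and -0.83, and their part in the Aldh3a2 values was not tested. The log2 change was -0.02 ± 0.05 in chronic ethanol against control (adjusted p = 0.999) and -0.08 ± 0.05 in withdrawal against control (adjusted p = 0.571). Without rat 13 the latter was -0.04.

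**Figure D2:**
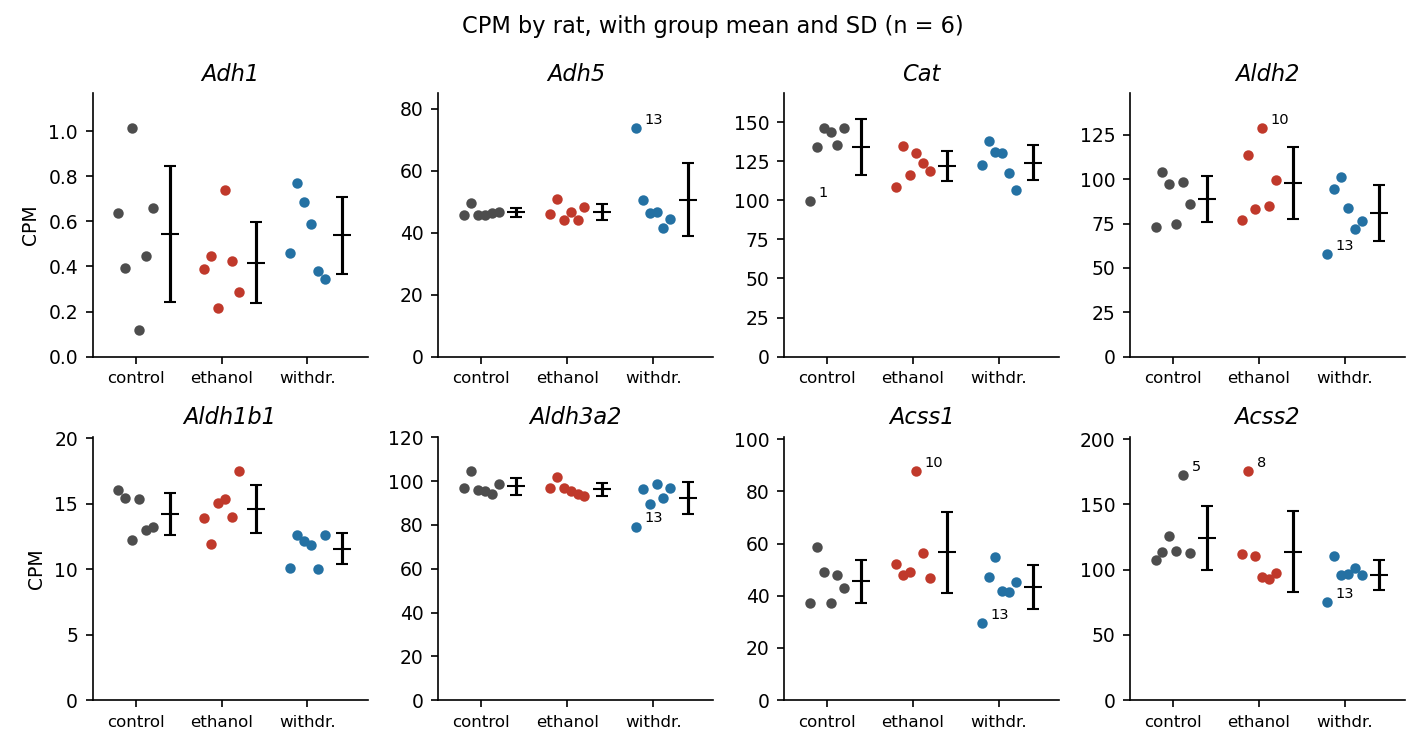
CPM of the 8 tested members in each rat (points), with the group mean and SD (bar, n = 6), for control, chronic ethanol and withdrawal (withdr.) rats, with rats that stand out numbered. Withdrawal rats lie at 10.0 to 12.6 CPM for Aldh1b1, while control rat 5 and ethanol rat 8 are high for Acss2, and ethanol rat 10 for Acss1.

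Of the enzymes that activate acetate, Acss1 (gene 296259, chr3:146420346-146470293, minus strand) was at 37.0 to 58.8 CPM in control rats (median 45.6), 46.7 to 87.6 CPM in ethanol rats (median 50.5) and 29.7 to 55.0 CPM in withdrawal rats (median 43.4). The lowest ethanol rat was above the control and withdrawal medians, and ethanol rat 10 lay far above the rest. The log2 change was 0.31 ± 0.17 in chronic ethanol against control (unadjusted p = 0.0769, edgeR adjusted p = 0.886), and 0.14 without rat 10. In withdrawal against chronic ethanol it was -0.38 ± 0.17 (unadjusted p = 0.0332, adjusted p = 0.301), and -0.22 without rat 10. Against control, withdrawal differed by -0.07 ± 0.17 (adjusted p = 0.895).

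Acss1 varied with Aldh2 among rats (r = 0.82 over the 14 rats) and with several marker sums. Over the 14 rats r was 0.64 with astrocyte, 0.61 with endothelial and 0.53 with microglia markers, and over 18 rats 0.67, 0.57 and 0.68. The astrocyte, endothelial and microglia sums of the ethanol group were each highest in rat 10. The genes most like it were Tifab (r = 0.93), Suclg2 (0.92), a subunit of a citric acid cycle enzyme, and Apoe (0.91), which was also among the genes most like Aldh2, and over all 18 rats their r was 0.91, 0.91 and 0.77. The plot of members against other transcripts shows both genes beside the astrocyte sum. The part of these cell types in the differences between groups was not tested.

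Acss2 (gene 311569, chr3:151032925-151075856, plus strand), whose promoter is shown above, was at 108 to 173 CPM in control rats (median 114), 93.1 to 175 CPM in ethanol rats (median 104) and 75.4 to 110 CPM in withdrawal rats (median 96.5). In both control and chronic ethanol, 1 rat lay far above the rest, control rat 5 at 173 CPM and ethanol rat 8 at 175 CPM. These were the rats with the highest Hoxb3, and they also held Slc17a7, a vesicular glutamate transporter, at 509 and 409 CPM. Rat 13 had 810 CPM of Slc17a7 and the remaining 15 rats up to 23.8 CPM. Without them the control rats were at 108 to 126 CPM (115 ± 6.69, n = 5) and the ethanol rats at 93.1 to 112 CPM (101 ± 8.90, n = 5).

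The log2 change of Acss2 was -0.13 ± 0.15 in chronic ethanol against control (adjusted p = 0.999). In withdrawal against control it was -0.37 ± 0.15 (unadjusted p = 0.0239, edgeR adjusted p = 0.458), with 5 of 6 withdrawal rats below every control rat. Between withdrawal and chronic ethanol it was -0.24 ± 0.15 (unadjusted p = 0.122, adjusted p = 0.430). None passed the adjusted test.

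The size of these Acss2 differences depended on which rats were used. In the 14 rats the change was -0.18 in chronic ethanol against control (unadjusted p = 0.0118, edgeR adjusted p = 0.276), -0.20 in withdrawal against control (unadjusted p = 0.00822, adjusted p = 0.440) and -0.02 between the ethanol-fed groups (unadjusted p = 0.729). Leaving out control rat 5 alone took the change in chronic ethanol from -0.13 to -0.01, and leaving out ethanol rat 8 alone took it to -0.29. When the index was added as a term it was 0.21 in chronic ethanol against control and 0.14 in withdrawal against control, both in the other direction. Within the index of rats 1 to 8, ethanol rats 7 and 8 differed from the 6 control rats by 0.19, and that value rests on rat 8. No index holds both control and withdrawal rats, so the value for withdrawal against control with the index passes through the chronic ethanol rats. Over the 14 rats Acss2 had r = 0.66 with the red blood cell sum (0.45 over 18) and -0.68 with the pineal sum, which was at most 10.1 CPM in those rats. The mean red blood cell sum was 326 CPM in control rats, 129 CPM in ethanol rats and 126 CPM in withdrawal rats, and its part in the differences of Acss2 and the genes like it was not tested.

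**Figure D3:**
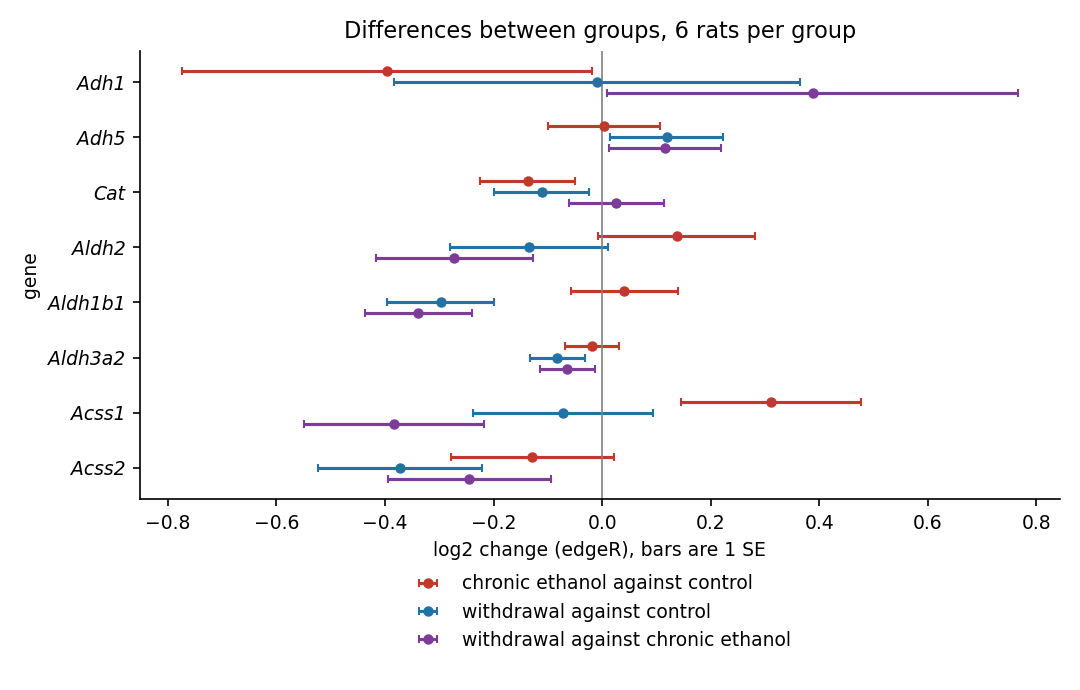
The log2 change of the 8 tested members by edgeR, with bars of 1 SE, for chronic ethanol and withdrawal, each against control, and for withdrawal against chronic ethanol (6 rats per group). Aldh1b1 lies at -0.30 and -0.34 in the comparisons with withdrawal and at 0.04 in chronic ethanol against control.

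The genes most like Acss2 over the 14 rats were enzymes of sterol synthesis: Cyp51 (r = 0.95), Sqle (0.93) and Msmo1 (0.92). Over all 18 rats r was 0.79, 0.65 and 0.74, with control rat 5 off the line. A list of 20 genes of the SREBP pathway, all tested, was read beside it. This list was chosen with earlier results of these data known. Its genes can vary together among rats, so its counts are a description and not independent results. In withdrawal against control 18 of the 20 lay lower, with a median log2 change of -0.36. There 15 were lower at an unadjusted p under 0.05, against 3.58% of all genes, and Srebf1, one of the factors themselves, was higher (0.36 ± 0.12). In chronic ethanol against control 18 lay lower with a median of -0.15, and 3 were lower at that p (Sqle, Mvd and Elovl6), against 2.74% of all genes, with Srebf1 again higher (0.28 ± 0.12). In withdrawal against chronic ethanol the median was -0.21, and 10 were lower, against 5.95%. None of the 20 passed the adjusted test in any comparison.

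Cyp51, a sterol demethylase, was at 315 ± 14.9 CPM in control rats, 281 ± 58.4 CPM in ethanol rats and 218 ± 55.2 CPM in withdrawal rats (SD, n = 6). All 6 withdrawal rats lay below every control rat, and 0.607% of all genes had no overlap in either direction. Its log2 change was -0.53 ± 0.16 (unadjusted p = 0.00433, edgeR adjusted p = 0.370). In the 14 rats the counts of SREBP genes lower at an unadjusted p under 0.05 were 13 in chronic ethanol against control, 13 in withdrawal against control and 4 between the ethanol-fed groups, beside 6.59%, 4.01% and 6.60% of all genes. When the index was added as a term they were 1, 4 and 2, beside 2.74%, 2.54% and 4.13%.

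**Figure D4:**
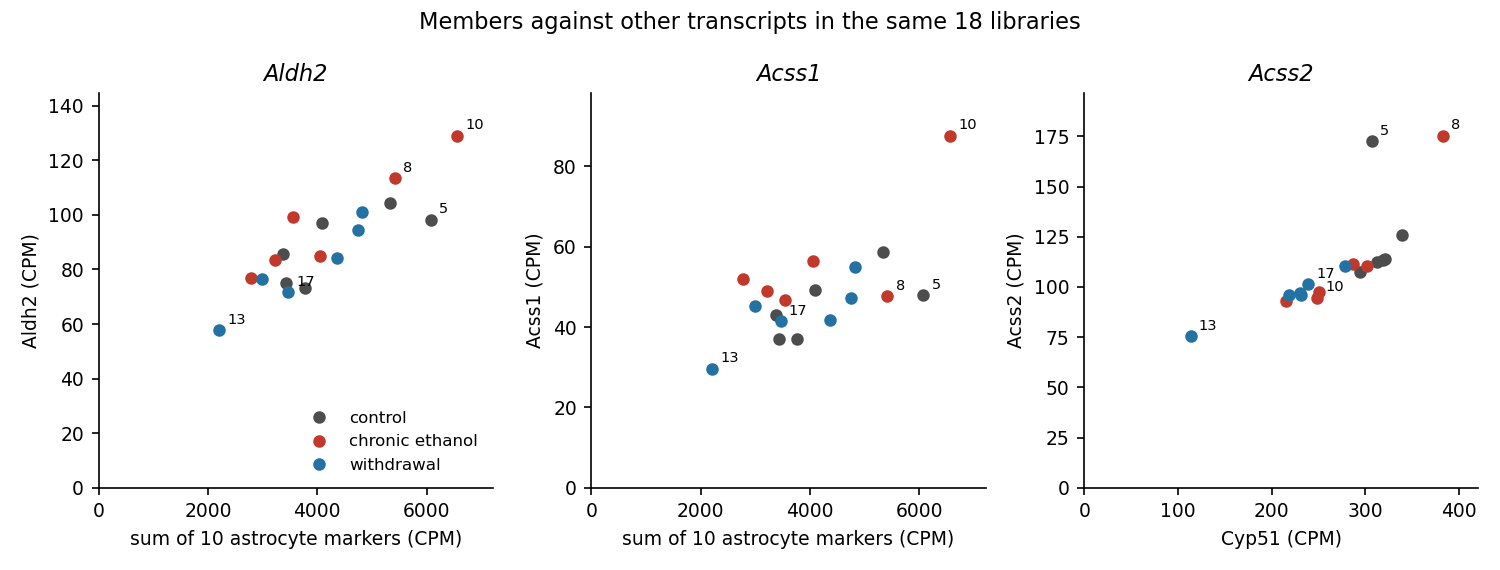
Aldh2 and Acss1 against the summed CPM of 10 astrocyte markers, and Acss2 against Cyp51 (CPM), 1 point per rat, coloured by group, with rats that stand apart numbered. Ethanol rat 10 is highest for Aldh2, Acss1 and the astrocyte sum, and control rat 5 and ethanol rat 8 lie above the other rats in Acss2.

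Other genes of the same steps were counted from fixed lists, and 0 of them passed the adjusted test. Counts at an unadjusted p under 0.05 are set beside the share of all genes at that p, which was 5.84% in chronic ethanol against control, 9.82% in withdrawal against control and 15.3% in withdrawal against chronic ethanol. Of 9 other genes listed with alcohol oxidation, 7 were tested, 1 of them at that p in each comparison, and Adh4 and Adh6 took at most 1 count in a library. Adhfe1, a mitochondrial hydroxyacid transhydrogenase, was at 65.1 ± 7.80 CPM in control rats, 81.0 ± 14.5 CPM in ethanol rats and 62.1 ± 12.6 CPM in withdrawal rats. Its log2 change was 0.32 ± 0.14 in chronic ethanol against control (unadjusted p = 0.0369, and 0.21 without rat 10) and -0.38 ± 0.14 in withdrawal against chronic ethanol (unadjusted p = 0.0137, edgeR adjusted p = 0.239). Sord, the sorbitol dehydrogenase, had a log2 change of -0.13 ± 0.04 in withdrawal against control (unadjusted p = 0.00795), and -0.07 with the index (edgeR unadjusted p = 0.392).

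Of 16 other aldehyde dehydrogenases, 14 were tested, and 1, 3 and 5 of them were at that p in the same order of comparisons. Aldh9a1 was lower in chronic ethanol against control at an unadjusted p under 0.05 (log2 change -0.17). Aldh4a1 (proline breakdown) and Aldh5a1 (GABA breakdown) were lower at that p in withdrawal against control, by -0.22 each, and against chronic ethanol, by -0.33 and -0.30. Without rat 13 the changes against control were -0.14 and -0.13, no longer at that p. In the 14 rats Aldh5a1 changed by -0.18 against chronic ethanol. Also against chronic ethanol, Aldh3b2 was lower (-1.13) and Aldh16a1 higher (0.29). Aldh3b2 was scarce, at 0.328 ± 0.117 CPM in withdrawal and 0.722 ± 0.319 CPM in ethanol rats. Aldh1l2, a mitochondrial folate enzyme, was higher in withdrawal against control (2.75) and against chronic ethanol (2.99), with rat 13 at 39.1 CPM against 0.569 to 1.49 CPM in the other 17 rats. Without rat 13 its changes were 0.18 and 0.43. Aldh1a1, the enzyme that marks part of the dopamine neurons, was at 398 ± 182 CPM in control rats, 341 ± 148 CPM in ethanol rats and 296 ± 138 CPM in withdrawal rats, and passed no test.

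Of 17 genes of acetate uptake and acetyl-CoA, 16 were tested, with 1, 4 and 3 at that p. Acat2, which makes acetoacetyl-CoA from acetyl-CoA at the head of sterol synthesis, was at 35.3 ± 3.15 CPM in control rats, 29.3 ± 5.33 CPM in ethanol rats and 22.0 ± 4.44 CPM in withdrawal rats. All 6 withdrawal rats lay below every control rat, and the log2 change was -0.68 ± 0.13 (unadjusted p = 8.49e-05, edgeR adjusted p = 0.255). Cs (citrate synthase), Pdhb and Dlat (pyruvate dehydrogenase complex) were also lower at an unadjusted p under 0.05 in withdrawal against control, by -0.11, -0.10 and -0.16. Dlat changed by -0.10 without rat 5 or without rat 13, and Acat2 by -0.35 with the index. In the 14 rats Cs and Dlat each changed by -0.07 (edgeR unadjusted p = 0.103 and 0.116), while with the index Cs changed by -0.20 (unadjusted p = 0.0322). In chronic ethanol against control Pdhb was lower (-0.10), and its 6 ethanol rats all lay under the lowest control rat, where 0.93% of all genes had no overlap in either direction. In withdrawal against chronic ethanol Acat2 (-0.41), Acss3 (-0.33), a mitochondrial short-chain acyl-CoA synthetase, and Slc16a7 (-0.27), a monocarboxylate transporter, were lower. Acss3 changed by -0.21 without rat 10, Slc16a7 by -0.16 without rat 13, and Acat2 by -0.24 in the 14 rats.

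Of 13 partners of microsomal oxidation, 11 were tested, and 1 was at that p in chronic ethanol against control, 0 in withdrawal against control and 1 between the ethanol-fed groups. Cyp2d4, a brain P450, was higher in chronic ethanol than in control (0.27) and lower in withdrawal than in chronic ethanol (-0.33). Of 14 genes of the peroxisome and hydrogen peroxide, the setting in which catalase works, 13 were tested, with 0, 1 and 2 at that p. Prdx5, a peroxiredoxin, was lower in withdrawal against control (-0.18), and Acox3 and Acaa1a, of peroxisomal fatty acid oxidation, were lower in withdrawal against chronic ethanol (-0.15 and -0.13). With the index, Prdx5 turned to 0.05, and without rat 8 Acaa1a changed by -0.09. Of 10 genes of non-oxidative ethanol routes, 6 were tested, with 0, 1 and 1 at that p. Pld2, a phospholipase D that can form phosphatidylethanol, was lower in withdrawal against control (-0.23) and against chronic ethanol (-0.25). In the 14 rats its change against control was -0.15 (edgeR unadjusted p = 0.0634). As reported, all of these genes have an unadjusted p under 0.05 and none passed the adjusted test.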

How the data were processed

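The deposited values are counts of read pairs per gene from paired-end stranded mRNA libraries. The authors aligned reads to Rnor_6.0 with STAR 2.5.2a, per the submitters' processing notes, and counted them with featureCounts 1.5.0, per the file headers. Symbols came from RefSeq names for GRCr8 (29322 of 38445 genes matched). Genes kept by filterByExpr (17637) were tested over all 18 libraries with edgeR 4.0.16 (TMM factors, quasi-likelihood F test, two-sided) in R 4.3.3, with Benjamini-Hochberg adjustment over all of them. The SE was derived from the log2 change and its F. Likeness is Pearson's r of log2 CPM (prior count 2) over 14 rats, among genes averaging 1 CPM or more. The 3 highest are named for Aldh2, Aldh1b1, Acss1 and Acss2 only. Pathway genes are named where an unadjusted p was under 0.05. Of 100 pathway genes, 1 matched no gene. Aldh1a1, Cyp51, Hoxb3 and Slc17a7 were picked after their values were seen. Alternatives were DESeq2 1.42.0, RLE factors, a stricter filter (1 CPM in 6 libraries), no filter, limma-voom (limma 3.58.1), only the groups compared, the index as a term, 14 rats, and each rat left out. The values of pathway genes under these settings were chosen after seeing the data. The members and lists were chosen with earlier results of these data known. The method was tested on simulated data.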

Additional observations from a re-analysis of the deposited data

Results flagged for a closer look

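In 6 of the 24 sets of 6 rats checked (8 members in 3 groups), 1 rat lay far from the others: its gap to the nearest rat, as a share of the whole range, was over the critical value of Dixon's test at 95%. Chance gives such a gap in about 1 in 20 sets. Adh5 was 49.6 CPM in control rat 2, where the next rat had 46.7 CPM, and 73.9 CPM in withdrawal rat 13, where the next had 50.7 CPM. Rat 13 also held the pineal markers. Cat was 99.6 CPM in control rat 1, the lowest of its group, below the next at 134 CPM. Acss1 was 87.6 CPM in ethanol rat 10, above the next at 56.4 CPM. For Acss2, control rat 5 had 173 CPM (the next 126) and ethanol rat 8 had 175 CPM (the next 112).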

How the results depend on the processing

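Of 621 member values recomputed over 24 member results, 584 kept their direction and 37 changed it, in 12 results, and 0 passed the adjusted test. The members called stayed at 0 under every setting run. Members at an unadjusted p under 0.05, in the order of comparisons below, were 0, 2 and 2 as reported, 1, 2 and 3 with no filter, 0, 1 and 3 with the index and 2, 2 and 1 in the 14 rats. With no filter, Adh7 and Cyp2e1 were tested as well, and the added member was one of these. Genes called over all genes went from 0 to 46 (chronic ethanol against control), 47 (withdrawal against control) and 301 (withdrawal against chronic ethanol) with DESeq2. They went to 2 in the first with limma-voom, with only the groups compared and with the index, and to 2 in the first and 2 in the third in the 14 rats. Leaving out 1 rat gave 0 to 4, 0 to 2 and 0 to 24.

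The direction turned for these log2 changes, and the cause was not tested. With the index, chronic ethanol against control became -0.14 for Aldh1b1, 0.023 for Aldh3a2 and 0.21 for Acss2, and withdrawal against control 0.24 for Adh1 and 0.14 for Acss2. In the 14 rats, Adh5 in chronic ethanol against control became -0.027. In the same rats withdrawal against control became 0.082 for Adh1, 0.028 for Aldh2 and 0.062 for Acss1, and Aldh3a2 against chronic ethanol 0.0018. Adh1 in withdrawal against control was 0.18 with limma-voom, and the pathway gene Prdx5 there 0.048 with the index. Adh5 in chronic ethanol against control was -0.00069986 with only those groups.

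Leaving out 1 rat turned 8 changes near 0. In chronic ethanol against control the ranges were -0.022 to 0.021 for Adh5, -0.020 to 0.093 for Aldh1b1 and -0.035 to 0.0019 for Aldh3a2. In withdrawal against control they were -0.22 to 0.25 for Adh1, -0.021 to 0.16 for Adh5 and -0.16 to 0.016 for Acss1. In withdrawal against chronic ethanol they were -0.024 to 0.16 for Adh5 and -0.011 to 0.061 for Cat.

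No paired analysis was possible because the groups share no animal numbers in the labels. Depth limits Adh1, Adh7 and Cyp2e1, which took few counts.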
